A study of Homo sapiens with 6 samples.

Results

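Prostate kallikreins and TMPRSS2 are secreted and membrane-bound serine proteases of the luminal cells of the prostate. The genes described are KLK3, KLK2, KLK4 and TMPRSS2, chosen by symbol in each deposited table. All 4 were listed in all 3 tables, among 26733 genes listed in 1 table or more. KLK3 (gene 354) encodes prostate-specific antigen, which liquefies semen and serves as the blood marker of prostate cancer. KLK2 (gene 3817) encodes a trypsin-like protease that can activate the KLK3 proenzyme. KLK4 (gene 9622) encodes another trypsin-like kallikrein, made in the prostate and in developing teeth. TMPRSS2 (gene 7113) encodes a protease anchored in the cell membrane.

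Androgen induces these genes in luminal prostate cells, so their transcripts are widely read as a measure of androgen signalling. KLK3, KLK2 and KLK4 lie close together in the kallikrein cluster on chromosome 19, and TMPRSS2 lies apart from them on chromosome 21.

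C4-2B, an established human prostate cancer line, derives from LNCaP and metastasises to bone. Cells were kept in medium with 9% charcoal-stripped and 1% regular serum, a mimic of castration that all 6 libraries share, and RNA was taken after 48 h. The SR2211 experiment compared vehicle with 5 µM SR2211, an inverse agonist of a nuclear receptor. The XY011 experiment compared its own vehicle with 5 µM XY011, known here only by its code name. The ENZ experiment compared its own vehicle with 20 µM enzalutamide (ENZ), an antiandrogen used against prostate cancer. Each group was 1 library, so no change had a replicate check or a p-value. Titles name XY011, while the extraction protocol gives a different code for that compound, and that of the ENZ pair names SR2211; groups follow the titles. The labels do not say how the cultures of different experiments relate.

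Levels are RPKM in the SR2211 experiment and FPKM in the others, that is reads or fragments scaled to transcript length and library depth. They can be compared between genes of a library because they are per length. Tables were scaled separately, so across experiments levels are set side by side and ranks are given among genes other than small RNAs. A change is log2((treated + 1)/(vehicle + 1)) within an experiment, and a gene is called higher or lower at a size of 1 or more. Depth in the SR2211 experiment, worked back from microRNA genes with a single read, was 8200243 mapped reads for vehicle and 8163382 for SR2211. Depth of the other libraries is unknown. Markers of the LNCaP lineage, such as FOLH1, EPCAM and KRT8, were at 1 or more in 7 or 8 of 8 genes per library. Basal markers reached 1 in 0 to 2 of 4 genes, and endothelial markers in 0 of 3 in every library. The smallest and largest summed levels were 0.296 and 4.49 for the basal markers, against 732 and 1576 for those of the LNCaP lineage. Stromal markers reached 1 in 1 to 3 of 5 genes, with sums of 2.00 to 45.5, the highest in the ENZ experiment, where the collagen gene COL1A1 went from 14.1 to 34.8 FPKM. Neuroendocrine markers reached 1 in 0 to 2 of 4 genes (sums 1.67 to 11.6) and blood markers in 1 of 3 (sums 4.43 to 13.3). Their part in the changes of the 4 genes was not tested.

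The promoters of KLK3 and KLK2 are shown first because these neighbours carried the largest changes of the 4 genes with SR2211 and XY011 and share a sequence upstream of their starts. The 250 bases before each start come from RefSeq (GRCh38.p14, not the build of the files), 5′ to 3′ on the gene's strand. KLK3 is from chr19:50854665-50854914 (plus strand), KLK2 from chr19:50873189-50873438 (plus strand) and KLK4, at its outermost listed start, from chr19:50911396-50911645 (minus strand). In KLK3 and KLK2 capitals mark a 15-base stretch, known in KLK3 as an androgen response element, and then a TATA box match read on the opposite strand.
KLK3: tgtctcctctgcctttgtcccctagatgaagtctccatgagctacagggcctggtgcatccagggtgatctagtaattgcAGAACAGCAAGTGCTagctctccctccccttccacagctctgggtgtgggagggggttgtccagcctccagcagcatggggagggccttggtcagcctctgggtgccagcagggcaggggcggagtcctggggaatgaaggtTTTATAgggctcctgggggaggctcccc
KLK2: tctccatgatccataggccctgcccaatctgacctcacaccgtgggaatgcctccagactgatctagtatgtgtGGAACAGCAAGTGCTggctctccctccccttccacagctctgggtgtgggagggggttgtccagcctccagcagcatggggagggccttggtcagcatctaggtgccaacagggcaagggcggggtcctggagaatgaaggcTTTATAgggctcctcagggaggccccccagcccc
KLK4: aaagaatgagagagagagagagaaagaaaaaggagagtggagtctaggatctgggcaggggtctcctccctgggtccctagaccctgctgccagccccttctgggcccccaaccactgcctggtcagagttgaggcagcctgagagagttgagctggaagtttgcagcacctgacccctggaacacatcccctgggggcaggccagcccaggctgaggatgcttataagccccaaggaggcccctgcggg

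Over 288 aligned bases of the 300-base windows from 250 before to 50 after the start, KLK3 and KLK2 were identical at 245 (85.1%), with an unbroken run of 80 identical bases. The stretch in KLK3, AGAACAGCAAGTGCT, lies 170 to 156 bases upstream of the start. In KLK2 it lies 176 to 162 bases upstream and differs by A1G, counted from 1 at its 5′ end with the KLK3 base first. The other 14 letters, GAACAGCAAGTGCT, searched for after the alignment was seen, occurred on either strand in 2 of 35116 promoters in the table (0.00570%), those of KLK3 and KLK2. AGAACA, the core repeated in androgen response elements, was found once in KLK3, not in KLK2 and not at either of the 2 listed KLK4 starts, and 14.8% of all promoters hold it. TATAAA occurred once in KLK3 and once in KLK2, with a background of 11.5%. Both strands were searched. AGAACA followed after any 3 bases by its own reverse complement, the consensus element, was in none of these windows and in 0.00285% of all promoters. Neither TGTTTAC, a forkhead motif held by 3.42% of promoters, nor AGATAA, a motif of the GATA factors held by 10.3%, was found in any of them. These matches are letters in a window and describe no binding. The 14 letters were taken from KLK3 and KLK2, so their hits in those 2 promoters were fixed in advance. RefSeq windows were found for 3 of the 4 genes, TMPRSS2 being the exception.

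KLK3 was the most abundant of the 4 genes in every library. It stood at 1357 RPKM in the SR2211 experiment's vehicle and 212 with SR2211, at 1315 FPKM in the XY011 experiment's vehicle and 461 with XY011, and at 2484 FPKM in the ENZ experiment's vehicle and 1487 with ENZ. All 3 treated libraries were below their own vehicles, and by rank KLK3 was the 20th, 43rd and 37th most abundant gene of the vehicles and the 210th, 120th and 101st of the treated libraries. The changes were -2.68 with SR2211, -1.51 with XY011 and -0.74 with ENZ, of which the last is under the size rule. With SR2211 only 7 of 12154 tested genes had a more negative change. The smallest whole read numbers that match the KLK3 values were 10607 and 1646, a ratio of 0.156 with an exact 95% interval of 0.148 to 0.164. Such intervals cover counting error only, and the reads counted may have been a whole multiple of these. In these cultures, less RNA per cell and fewer cells expressing a gene cannot be told apart.

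KLK2 was the 1 gene of the 4 that was lower in all 3 experiments. Among all tested genes, 5.75%, 13.2% and 4.66% were lower with SR2211, XY011 and ENZ, and the share lower in all 3 was not worked out. The level of KLK2 was 211 RPKM in vehicle and 28.2 with SR2211, 216 FPKM in vehicle and 32.8 with XY011, and 868 FPKM in vehicle and 220 with ENZ. Each treated library held between 13.4% and 25.4% of its vehicle's level. The changes were -2.86, -2.68 and -1.97, and 0.0494%, 0.388% and 0.823% of tested genes had a more negative one. Read numbers of at least 5078 and 678 in the SR2211 experiment gave a ratio of 0.134 (exact 95% interval 0.124 to 0.145). KLK2 ranked 225th, 275th and 178th in the vehicles, then 2611th, 2208th and 810th in the treated libraries.

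KLK4, which lies beyond KLK2 in the cluster, had smaller changes than KLK2 with each compound. It stood at 90.5 RPKM in vehicle and 38.4 with SR2211, at 165 FPKM in vehicle and 95.4 with XY011, and at 236 FPKM in vehicle and 275 with ENZ. The SR2211 and XY011 libraries were below their vehicles and the ENZ library was above its own. Only the SR2211 change, -1.22, met the size rule, while XY011 gave -0.78 and ENZ 0.22. At least 1000 and 422 reads lay behind the SR2211 ratio of 0.424 (exact 95% interval 0.377 to 0.475). Among all tested genes, 2.95% had a more negative change with SR2211, 19.6% with XY011 and 71.0% with ENZ.

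TMPRSS2 was lower with ENZ and at the edge of the size rule with SR2211, but above its vehicle with XY011. Its level was 134 RPKM in vehicle and 66.7 with SR2211, 125 FPKM in vehicle and 156 with XY011, and 473 FPKM in vehicle and 127 with ENZ. With ENZ the change was -1.89, and 0.937% of tested genes had a more negative one. With SR2211 it was -1.00, and it became -0.93 with the median gene's change set to 0, -0.86 after quantile scaling and -0.96 with a pseudocount of 5. The SR2211 ratio was 0.496 from at least 3582 and 1769 reads (exact 95% interval 0.468 to 0.525). With XY011 the change was 0.32, under the size rule, and 27.1% of tested genes had a more positive change.

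**Figure D1:**
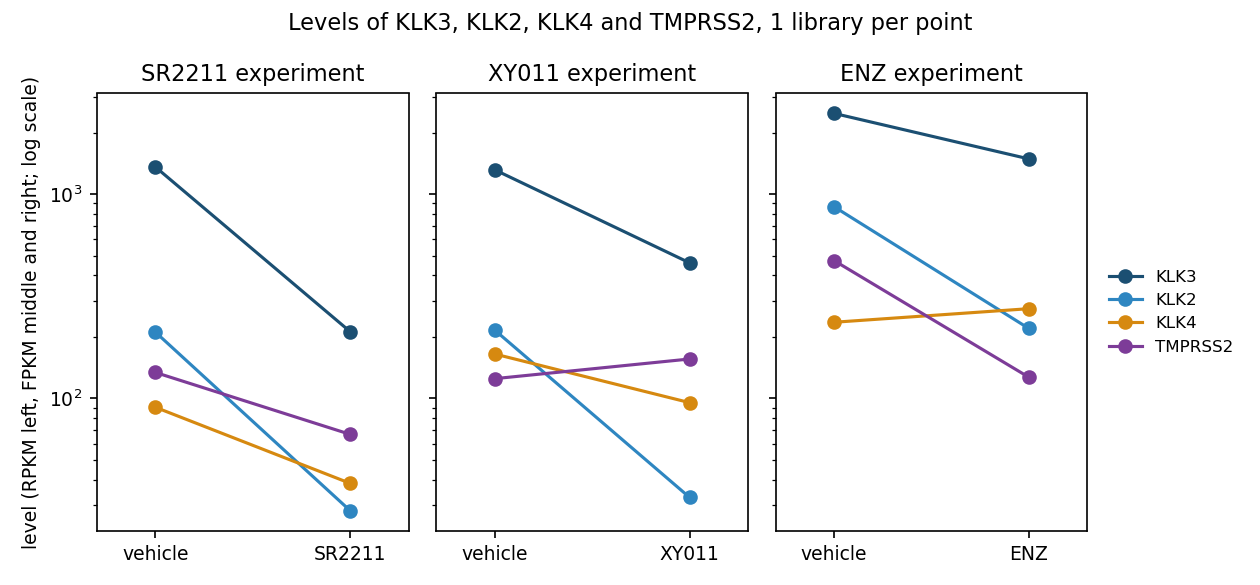
Level of KLK3, KLK2, KLK4 and TMPRSS2 (y axis, log scale, RPKM in the SR2211 panel and FPKM in the others) in vehicle and treated libraries (x axis), 1 library per point, with a line joining the 2 libraries of an experiment. KLK3 is the highest line in each panel, the KLK4 line rises only in the ENZ panel (236 to 275) and the TMPRSS2 line only in the XY011 panel (125 to 156).

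By the size rule, 4 of 4 genes were lower with SR2211, where 5.75% of 12154 tested genes were. With XY011, 2 of 4 were lower (KLK3 and KLK2), where 13.2% of 12617 were. With ENZ, 2 of 4 were lower (KLK2 and TMPRSS2), where 4.66% of 19206 were. KLK3 and KLK2 were lower with both SR2211 and XY011, as were 4.58% of the 11636 genes tested in both, and none of the 4 was higher with both (3.25% of those genes were). None of the 4 was higher with any compound, where 5.10%, 7.59% and 3.68% of all tested genes were. Median changes of the 4 genes were -1.95, -1.15 and -1.31, against medians over all tested genes of -0.07, -0.14 and -0.02. With the median gene's change set to 0, the XY011 background became 9.63% lower and 10.1% higher, so that decreases made up 48.9% of calls in place of 63.5%. Quantile scaling gave 9.93% and 9.84% (50.2%). The genes differed among themselves as well. Their changes spanned 1.85 log2 units with SR2211, from KLK2 to TMPRSS2, 3.00 with XY011, also from KLK2 to TMPRSS2, and 2.19 with ENZ, from KLK2 to KLK4.

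**Figure D2:**
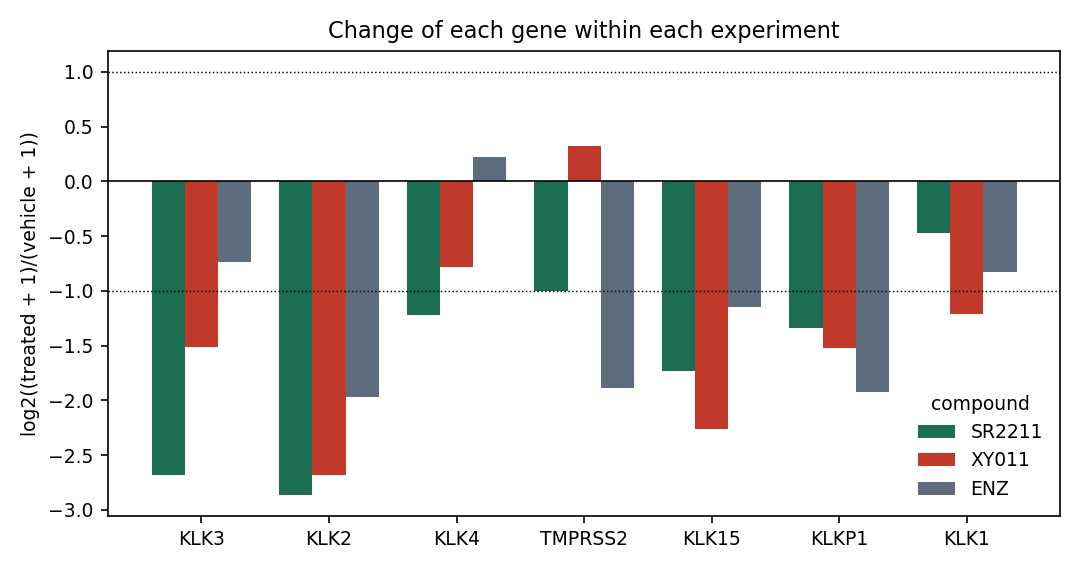
Change of each gene (y axis, log2((treated + 1)/(vehicle + 1)), 1 pair of libraries per bar) with SR2211, XY011 and ENZ, dotted lines marking the size rule of 1. KLK2 passes the lower line with each compound, as do KLK15 and KLKP1, while TMPRSS2 with XY011 (0.32) and KLK4 with ENZ (0.22) lie above 0.

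SR2211 and XY011 were given at the same dose and time, so their changes can be set against each other, without a test at 1 pair each. Their titles carry different dates, and their levels were scaled separately and differ in unit. Compound, date and processing therefore cannot be told apart. For KLK2 they differed by 0.17 log2 units, and 69.6% of 11636 genes tested in both differed by more. KLK4 differed by 0.43, with 34.4% of genes differing more. KLK3 was lower with SR2211 by a further 1.17 and TMPRSS2 by a further 1.32, sizes that 3.39% and 2.08% of genes exceeded. A difference of 1 or more was thus seen in 2 of the 4 genes and in 6.03% of all genes tested in both. ENZ was used at another dose, so no such difference was taken for it. Where its values stand beside these, compound, dose, date and processing cannot be told apart.

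Ratios within a library do not depend on a constant factor by which that library was scaled, though quantile scaling can move them. KLK3 over KLK2 was 6.45, 6.09 and 2.86 in the SR2211, XY011 and ENZ vehicles, and 7.49, 14.1 and 6.75 in the treated libraries. In the deposited values the decrease of KLK2 was thus larger than that of KLK3 in each experiment, by a factor of 1.16 with SR2211, 2.31 with XY011 and 2.36 with ENZ. With SR2211 this order did not hold after quantile scaling, which gave changes of -2.84 for KLK3 and -2.78 for KLK2. KLK2 over KLK4 went from 2.33 to 0.736, from 1.31 to 0.344 and from 3.68 to 0.802, so KLK2 passed from above KLK4 to below it in all 3 experiments. KLK4 over TMPRSS2 went from 0.674 to 0.576 with SR2211, from 1.32 to 0.612 with XY011 and from 0.499 to 2.16 with ENZ. That ratio moved down with SR2211 and XY011 and up with ENZ. KLK2 over TMPRSS2 was 1.84 and 1.73 in the ENZ experiment, a factor of 0.945, whereas the factors were 0.270 with SR2211 and 0.122 with XY011.

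**Figure D3:**
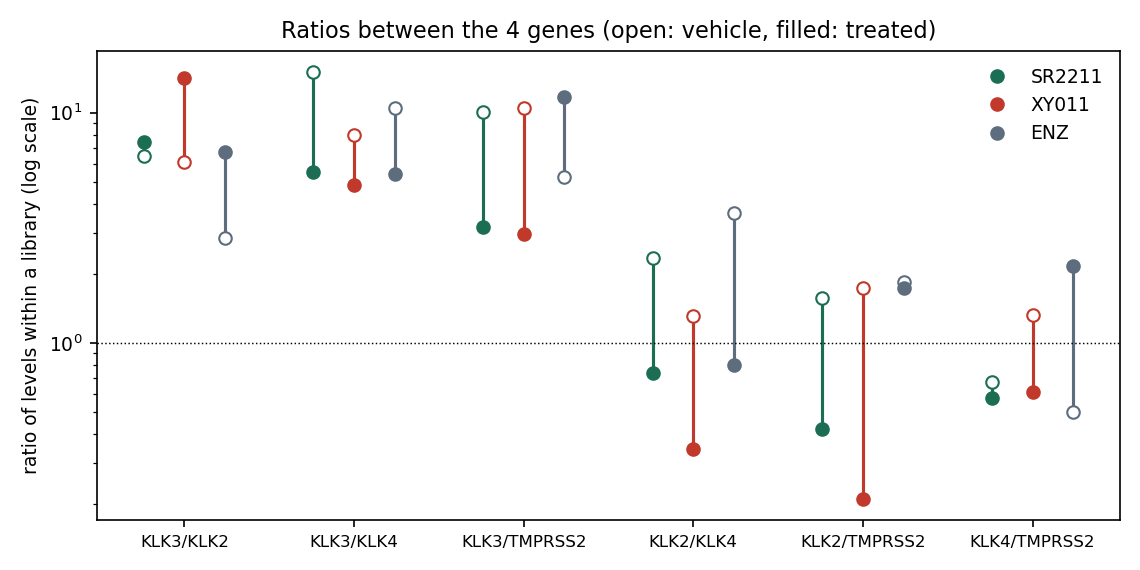
Ratio of the levels of 2 genes within a library (y axis, log scale) for the 6 pairs of the 4 genes (x axis), open circles for vehicle and filled circles for treated libraries, with a line joining those of an experiment. The KLK2/KLK4 ratio crosses 1 with every compound, and the KLK4/TMPRSS2 ratio moves up with ENZ (0.499 to 2.16) and down with SR2211 and XY011.

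The order of levels was the same in the libraries of both 5 µM compounds. KLK3 and KLK2 held the first and the second place in every vehicle. TMPRSS2 was above KLK4 in the vehicles of the SR2211 and ENZ experiments and below it in that of the XY011 experiment (125 against 165 FPKM). With SR2211 and with XY011 the order was KLK3, TMPRSS2, KLK4, KLK2. With ENZ it was KLK3, KLK4, KLK2, TMPRSS2. Without replicates the spread of a level is not known, so which neighbours in these orders differ cannot be said.

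Reads of KLK3 and KLK2 could be confused where their transcripts are alike. In GENCODE 29, 11 of 2556 distinct stretches of 50 bases in KLK3 coding transcripts (0.430%) also occur exactly in other genes among KLK1, KLK2, KLK4, KLK15 and TMPRSS2, as do 11 of 3631 in KLK2 (0.303%). At 100 bases, the read length stated for the ENZ pair, none was shared. No such stretch of either length was found for KLK4 or TMPRSS2. How the deposited values treat reads with several matches is not given in the sources used here.

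Other genes of the kallikrein cluster were measured at lower levels. Of 13 listed as family besides the 3 genes above, 3, 4 and 3 reached a value of 1 in the SR2211, XY011 and ENZ experiments. Of these, 2, 3 and 2 were lower and none was higher (medians -1.34, -1.37 and -1.15). KLK15, beyond KLK3 in gene order, went from 12.7 to 3.14 RPKM with SR2211, from 12.4 to 1.79 FPKM with XY011 and from 19.5 to 8.23 FPKM with ENZ. KLKP1, a transcribed pseudogene between KLK2 and KLK4, went from 7.77 to 2.46 RPKM, from 7.21 to 1.86 FPKM and from 73.2 to 18.6 FPKM. Both were thus lower with each compound, with changes of -1.73, -2.26 and -1.15 for KLK15 and -1.34, -1.52 and -1.92 for KLKP1. The SR2211 ratio of KLKP1 rests on as few as 73 and 23 reads (0.316, exact 95% interval 0.189 to 0.512). With ENZ the KLKP1 level came to 25.5% of vehicle, beside 25.4% for KLK2 and 117% for KLK4. With the other compounds KLKP1 and KLK2 stood further apart. Shares for KLKP1, KLK2 and KLK4 were 31.6%, 13.4% and 42.4% with SR2211, and 25.8%, 15.2% and 57.9% with XY011. KLK1, tissue kallikrein, was at 3.49 and 2.24 RPKM with SR2211, a ratio of 0.643 whose interval of 0.321 to 1.25 includes 1. It was lower with XY011 (5.57 to 1.84 FPKM) and at 4.37 and 2.03 FPKM with ENZ.

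Around TMPRSS2, the 5 protein-coding genes on each side included 6, 5 and 6 tested genes, with 0 lower and 1 higher in each experiment. The higher one was BACE2, a membrane aspartyl protease gene. It went from 1.55 to 8.02 RPKM with SR2211, from 0.320 to 3.32 FPKM with XY011 and from 0.670 to 6.73 FPKM with ENZ, against the direction of TMPRSS2 in the SR2211 and ENZ pairs. In the XY011 and ENZ vehicles BACE2 was under 1. It was tested there only through the treated library and could not have been called lower. Likewise, 5 genes on each side of the stretch from KLK3 to KLK4 gave 2, 3 and 3 tested genes, of which 1, 2 and 1 were lower, all of them KLK15 or KLK1.

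Relatives of TMPRSS2 were counted in the same way. Of 15 membrane serine proteases, 5 were tested with SR2211, 1 of them higher and none lower. With XY011 3 of 5 were higher, and with ENZ 2 of 8 were lower and none higher. With a pseudocount of 0.1, 1, 1 and 4 were lower with SR2211, XY011 and ENZ. The epithelial protease genes TMPRSS13 (1.22 and 1.18), PRSS8, which encodes prostasin (0.91 and 1.41), and HPN, which encodes hepsin (0.73 and 1.13), had these changes with SR2211 and XY011. PRSS8 and HPN were under the size rule with SR2211. The other 2 genes tested with these compounds had negative changes, all under that rule. With ENZ the decreases were in TMPRSS4 (6.66 to 1.56 FPKM) and in CORIN, the protease that activates natriuretic peptide (1.42 to 0.105 FPKM). CORIN was under 1 in the treated library, so it was tested only through the vehicle and could not have been called higher. When only genes that reached 5 were tested, 1 gene of the list was lower with ENZ. Among protease inhibitors and partners, 5 genes were tested in each experiment. SERPINA3, whose product binds prostate-specific antigen in blood, was the 1 gene called, going from 0.150 to 3.08 RPKM with SR2211 and from 0.140 to 2.75 FPKM with XY011. Its SR2211 ratio of 20.6 rests on as few as 2 vehicle reads (exact 95% interval 5.35 to 176). With both compounds SERPINA3 was under 1 in vehicle, so it was tested only through the treated library and could not have been called lower. The median changes of that list were 0.05, 0.37 and -0.01.

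Of the transcription factor genes that act with androgen signalling, a few were named by size of change. The list they come from, which also holds cofactor genes, gave 15 tested genes in each experiment. With SR2211, XY011 and ENZ, 1, 4 and 0 of these were lower and 2, 3 and 0 higher (medians 0.01, 0.36 and 0.13). HOXB13, a prostate homeobox gene, went from 136 to 47.9 RPKM and from 109 to 36.6 FPKM with SR2211 and XY011. GATA2, a pioneer factor gene, had changes of 1.04 and 1.82 with these compounds. With ENZ, HOXB13 was at 131 and 164 FPKM and GATA2 at 120 and 229 FPKM, changes of 0.33 and 0.92 that are under the size rule.

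Other genes that androgen is known to induce, 36 besides these 4 and with KLK15 among them, gave 31 tested genes in each experiment. Of these, 21, 23 and 22 were lower with SR2211, XY011 and ENZ, and 1, 2 and 0 were higher (medians -1.37, -1.78 and -1.47). Among all tested genes, 5.75%, 13.2% and 4.66% were lower and 5.10%, 7.59% and 3.68% higher. The list was drawn up with earlier results of these data known and is no independent evidence of direction. The largest decreases of the list with SR2211 and with XY011 were in C1orf116, a steroid-responsive gene (79.9 to 6.90 RPKM and 74.7 to 0.980 FPKM), with -2.89 for ENZ. With XY011 C1orf116 was under 1 in the treated library and was tested only through the vehicle. In each experiment the same held for some other list genes called lower. SLC45A3, which encodes the prostate membrane protein prostein, had changes of -2.95, -4.02 and -3.54. FKBP5, which encodes a chaperone partner of steroid receptors, had -2.50, -3.70 and -2.44. TRPM8, a cold-sensing channel gene, had -3.20 with ENZ. TSC22D3, a leucine zipper gene that glucocorticoids also induce, went the other way, from 44.3 to 141 RPKM with SR2211 and from 35.8 to 358 FPKM with XY011. Of the 30 list genes tested in all 3 experiments, 18 were lower in all 3, as was KLK2. The share of all tested genes lower in all 3 was not worked out. KLK2 stood toward the more negative end of the list, with 2, 6 and 9 of the 31 genes below it. KLK3 had 2 genes below it with SR2211, 18 with XY011 and 24 with ENZ. TMPRSS2 had 21, 28 and 10, and KLK4 18, 23 and 29, so that with ENZ only 2 genes had a more positive change than KLK4.

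**Figure D4:**
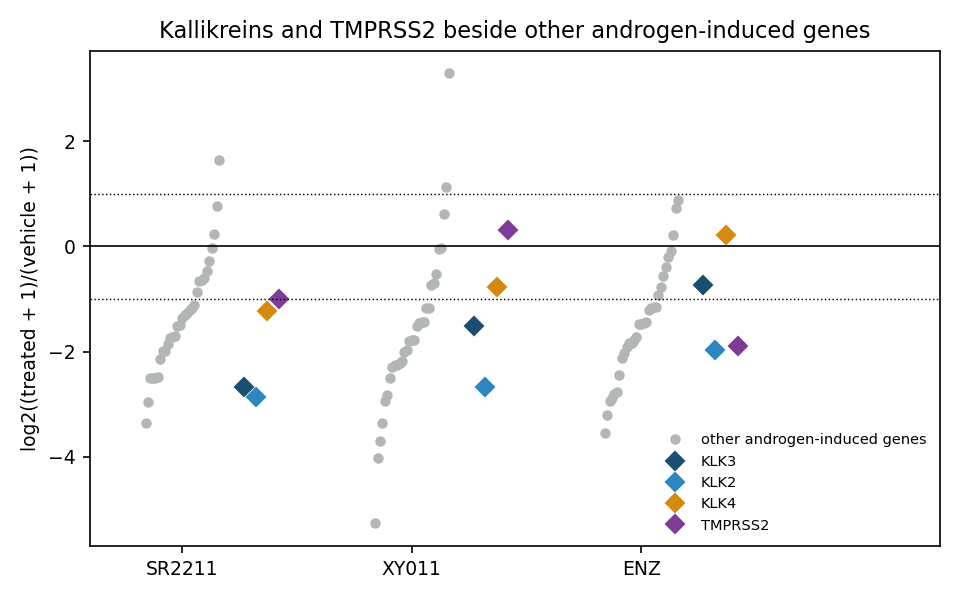
Change (y axis, log2((treated + 1)/(vehicle + 1))) with each compound (x axis) for the 31 tested other androgen-induced genes, grey points sorted by value, and for KLK3, KLK2, KLK4 and TMPRSS2 as diamonds; dotted lines mark the size rule of 1. KLK2 lies in the lower part of each grey column, while TMPRSS2 with XY011 and KLK4 with ENZ lie near the top.

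Genes with the most similar pattern were sought by distance over the 3 changes, among 8149 genes that reached 5 in every experiment. Nearest to KLK3 were CENPN (distance 0.74), PHLDA2 (0.82) and ASF1B (0.83). Nearest to KLK2 were ST6GALNAC1 (0.59), AADAT (0.78) and ELOVL2 (0.78). KLK4 had many close genes, led by ARRB1 (0.18), TOP3A (0.19) and FERMT1 (0.20). The genes nearest to TMPRSS2 were NDRG1 (0.55), RC3H1 (0.70) and GNAQ (0.72). NDRG1, an androgen-induced stress gene, had changes of -0.60, -0.05 and -1.77 with SR2211, XY011 and ENZ, beside -1.00, 0.32 and -1.89 for TMPRSS2. None of these nearest genes was another of the 4. KLK3 and KLK2 were 1.71 apart, with 357 genes nearer to KLK3 than KLK2 was, and KLK4 and TMPRSS2 were 2.39 apart, with 7103 genes nearer to KLK4. Such a count depends on which gene of a pair it starts from, and for these pairs none was made from KLK2 or TMPRSS2.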

How the data were processed

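Polyadenylated RNA was sequenced from TruSeq libraries, per the labels' protocols. Values in the SR2211 experiment are RPKM and those in the XY011 and ENZ experiments FPKM, as the authors deposited them, per the file headers. BWA, Bowtie, Cuffdiff and Cufflinks, with GRCh37 and hg19 as builds, are named in the submitters' processing notes. No source used here states their versions or roles, the gene models, or whether counting used strand. Reads of antisense partners may therefore be mixed. Genes without reads stand at 0.01, 0.001 and 0 in the SR2211, XY011 and ENZ tables.

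Genes were matched by Entrez identifier, or in the ENZ table by current or older symbol (RefSeq), and lines of the same gene were summed. Changes used a pseudocount of 1. Small RNA genes were left out, as were genes under 1 in both libraries of an experiment, and calls were made by size alone (Python 3.11.15, pandas 2.3.3). Whole read numbers in the SR2211 experiment are the smallest that give both RPKM values at a whole transcript length. Ratio intervals are exact binomial (Clopper-Pearson, scipy 1.17.1). Promoters were aligned with Biopython 1.88. The calling code was tested on simulated data. The 4 genes, the lists and the size rule were chosen with earlier results of these data known. Genes named are the 4, list genes among the 3 largest changes past the size rule in any experiment, and the 3 nearest genes of each. KLKP1 and KLK1 are named as neighbours, and markers as checks of the line. Other pseudocounts, filters, scalings and size rules were tried. The TMPRSS2 promoter was not used here, and a few genes that the rule would name are not reported here.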

Additional observations from a re-analysis of the deposited data

Results flagged for a closer look

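For 2 genes, the treated library lay to one side of its vehicle in some experiments and to the opposite side in another, each time with 1 pair of libraries per experiment, and the differences were not tested. KLK4 had changes of -1.22 with SR2211, -0.78 with XY011 and 0.22 with ENZ. TMPRSS2 had changes of -1.00, 0.32 and -1.89 in the same order. The positive values were all under the size rule of 1, and compounds, experiments, units and, for ENZ, dose differ together, so these cannot be told apart.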

How the results depend on the processing

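Over 9 alternatives for 12 changes of the 4 genes, 98 of 108 values kept their direction and their side of the size rule, 8 dropped below it, 2 came to pass it and 0 reversed. Much of this count was fixed in advance. Alternatives that altered only which genes were tested could not move these values, and other size rules could not reverse them. Only the other pseudocounts and scalings could change the values themselves. The losses were those of TMPRSS2 with SR2211 given above and, with a size rule of 2, those below it by construction. With that rule 2 of 4 genes were lower with SR2211, 1 with XY011 and 0 with ENZ, and SR2211 and XY011 differed by as much in 0. With a size rule of 0.5, KLK4 with XY011 and KLK3 with ENZ passed. The change of KLK4 with ENZ ranged from 0.22 to 0.29 and that of TMPRSS2 with XY011 from 0.31 to 0.46. The share of all tested genes called lower ranged more widely, from 0.329% to 21.4% with SR2211, from 1.54% to 31.6% with XY011 and from 0.797% to 15.8% with ENZ at size rules of 2 and 0.5. With a pseudocount of 5 it was 2.48%, 5.27% and 1.42%, and 1 other kallikrein was lower in each experiment. Among genes listed in all 3 tables, 2.95% were lower with ENZ. No paired analysis was possible because each group held 1 library, and no library could be left out for the same reason. Depth is unknown for the XY011 and ENZ experiments.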
